A study of Mus musculus with 18 samples.

Results

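Residual neurogenesis in the juvenile mouse brain was described through 9 genes of dividing and newly born neural cells, *Mki67*, *Top2a*, *Ccnb1*, *Dcx*, *Sox11*, *Sox4*, *Igfbpl1*, *Eomes* and *Sox2*. They were found by symbol in GENCODE release M21, each with 1 Ensembl identifier, and made up 9 of the 53468 genes counted. The symbols are a hand-made list and no measured value of these libraries entered its rule, but the list was written with earlier results of these data known. RNA came from dissected forebrain, midbrain and hindbrain of 3 mice with the Fmr1CRE knock-in, a base change in a cis-regulatory element linked to *Fmr1* that was introduced by CRISPR/Cas9 on a C57BL/6 background, and of 3 wild-type (WT) mice of the same litter, all at postnatal day 25 (P25). Several lines carrying the change were made, and which line these mice came from is not given in the sources used here. Each mouse gave 1 poly(A) library per region, 18 in all, read as single-end sequences of 50 bases. The comparisons ask where in the brain these transcripts remained at P25 and whether their levels differed with the knock-in.

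On GRCm38, the annotation places *Mki67* (ENSMUSG00000031004) at chr7:135689784-135716361, *Top2a* (ENSMUSG00000020914) at chr11:98992943-99024189, *Ccnb1* (ENSMUSG00000041431) at chr13:100778650-100786570, *Dcx* (ENSMUSG00000031285) at chrX:143855842-143933311, *Sox11* (ENSMUSG00000063632) at chr12:27334264-27342574, *Sox4* (ENSMUSG00000076431) at chr13:28948919-28953713, *Igfbpl1* (ENSMUSG00000035551) at chr4:45809468-45826923, *Eomes* (ENSMUSG00000032446) at chr9:118478212-118486132 and *Sox2* (ENSMUSG00000074637) at chr3:34650405-34652461. *Eomes* and *Sox2* lie on the plus strand and the others on the minus strand, and a value is the sum over all annotated transcripts of the gene.

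In the mammalian brain most neurons are born before birth or soon after. Stem cells of the subventricular zone beside the lateral ventricle keep sending neuroblasts to the olfactory bulb, the dentate gyrus of the hippocampus keeps adding granule neurons, and the external granule layer of the cerebellum finishes dividing in the first weeks of life. Dividing precursors pass through S phase and mitosis, then switch on the genes of migrating immature neurons. *Mki67* encodes the proliferation antigen Ki-67, *Top2a* the topoisomerase that untangles replicated chromosomes, and *Ccnb1* cyclin B1, which drives entry into mitosis. *Dcx* encodes doublecortin, a microtubule-binding protein of migrating neuroblasts, *Sox11* and *Sox4* are SoxC transcription factors of newly born neurons, and *Igfbpl1* encodes a secreted IGF-binding-like protein found in neuroblasts. *Eomes* encodes TBR2, a transcription factor of intermediate progenitors that is also made in unipolar brush cells of the cerebellum. *Sox2* encodes a transcription factor of neural stem cells that astrocytes and other glia also make. In bulk tissue, fewer cells of a type and less RNA per cell cannot be told apart. Which cells carried a transcript, newly born or mature, was not tested. Oligodendrocyte precursors also divide at this age and carry the transcripts of the cell cycle.

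*Mki67*, *Top2a* and *Ccnb1* were all higher in forebrain than in the other regions, as described further on, so the stretches just upstream of their starts are shown. The sequences come from RefSeq on GRCm38.p6 and end at the outermost annotated start, which shortens that of *Ccnb1* to 166 bases from 250. Capitals mark CCAAT on either strand (ATTGG when read from the other strand), the box bound by NF-Y, and TTTGAA or TTCGAA on either strand (TTTGAA reads TTCAAA from the other strand), forms of the cell cycle homology region (CHR) through which MuvB complexes act on genes of late cell cycle.
Mki67 chr7:135716380-135716629 minus strand: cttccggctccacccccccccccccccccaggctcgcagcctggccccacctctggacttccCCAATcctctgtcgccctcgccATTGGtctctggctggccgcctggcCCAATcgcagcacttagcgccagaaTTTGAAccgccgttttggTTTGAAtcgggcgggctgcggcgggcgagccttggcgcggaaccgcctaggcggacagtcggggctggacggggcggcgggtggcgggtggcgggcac
Top2a chr11:99024190-99024439 minus strand: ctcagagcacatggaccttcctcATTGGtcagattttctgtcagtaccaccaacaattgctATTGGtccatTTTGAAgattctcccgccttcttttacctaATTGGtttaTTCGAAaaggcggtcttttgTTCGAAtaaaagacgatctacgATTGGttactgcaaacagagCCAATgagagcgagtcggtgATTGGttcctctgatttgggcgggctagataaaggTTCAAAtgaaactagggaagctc
Ccnb1 chr13:100786571-100786736 minus strand: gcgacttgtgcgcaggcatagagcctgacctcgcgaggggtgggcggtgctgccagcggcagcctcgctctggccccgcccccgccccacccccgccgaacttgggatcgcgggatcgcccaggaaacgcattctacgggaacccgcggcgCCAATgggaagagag

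Over the 250 bases before the start, the CCAAT box stood at 3 places in *Mki67*, at 6 in *Top2a* and at 2 in *Ccnb1*, where 1 of them lies in the stretch shown. The first CHR form above stood at 2 places each in *Mki67* and *Top2a*, and the other form at 2 in *Top2a*. A further CHR form, TTTAAA, lies 37 bases before the RefSeq start of *Ccnb1*. Of 32851 windows of that length before mouse gene starts, 33.8% held the CCAAT box, and 16%, 1.34% and 12.1% held the 3 CHR forms in the order given here. The CCAAT box at 2 or more places with any of the CHR forms was found in 2.54% of the windows, and in those of *Mki67*, *Top2a*, *Ccnb1* and *Sox4* among the 8 members with a window. *Sox4* held the box at 4 places, *Eomes* at 2, and *Sox11*, *Dcx* and *Sox2* at 1 each. *Igfbpl1* had no window in the table. A match of letters was taken as a description of the stretch.

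Between 22455512 and 28061185 reads were counted on genes in a library. The level of *Fmr1* itself ran from 74.0 to 78.7 CPM in Fmr1CRE forebrain and 69.2 to 83.4 CPM in WT forebrain, and the genotypes overlapped in each region. Gene counts do not show the altered base, so the genotype labels could not be checked with them. Levels are given as CPM (counts scaled to a common library total) after TMM normalization of the 18 libraries together. The lowest members rested on few reads. *Igfbpl1* had 8 to 37 reads in hindbrain, *Ccnb1* 12 to 84 in any library and *Eomes* 16 to 58 in forebrain. The labels of the regions were checked against marker lists. The summed level of 7 forebrain markers such as *Tbr1* ran from 288 to 389 CPM in forebrain and from 12 to 16.6 CPM in hindbrain, but from 171 to 287 CPM in midbrain. That of 9 hindbrain markers ran from 0.352 to 7.90 CPM in forebrain, 74.3 to 211 CPM in midbrain and 347 to 649 CPM in hindbrain. The libraries labelled midbrain thus held transcripts of forebrain and hindbrain beside midbrain genes such as *Pax7* and *En1*, and a midbrain level below is the level of that mixture. The part of this in each result was not tested. Among 37 genes whose profile over the 6 mice agreed between midbrain and hindbrain (r over 0.95), the forebrain library of Fmr1CRE replicate 3 correlated at -0.41 with its own mouse and 0.85 with WT replicate 3, and that of WT replicate 3 at -0.36 with its own mouse and 0.75 with Fmr1CRE replicate 3. That of WT replicate 2 correlated at 0.25 with its own mouse and 0.51 with WT replicate 3, and the other 3 correlated best with their own mouse, at 0.72 to 0.90. The labels were kept, and results that rest on both libraries are given with and without both mice of that number.

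Per kilobase of transcript, on which levels of different genes can be set side by side, *Sox2* was the most abundant of the 9 in each region, at 22.9 ± 2.36 CPM per kb in forebrain, 19.3 ± 2.67 in midbrain and 14.1 ± 2.07 in hindbrain (SD, n = 6). *Sox4* followed in forebrain at 7.72 ± 1.02 CPM per kb, then *Dcx* at 6.19 ± 0.311, and the libraries of that pair overlapped. *Sox11* came next at 3.12 ± 0.441 CPM per kb. *Igfbpl1* at 1.98 ± 0.164, *Top2a* at 1.83 ± 0.291 and *Ccnb1* at 1.68 ± 0.385 CPM per kb overlapped with each other, and *Mki67* at 0.710 ± 0.0867 and *Eomes* at 0.318 ± 0.168 closed the order without overlap. In hindbrain the order had changed below *Sox2*, *Sox4* and *Dcx*. *Eomes* there stood next, at 1.41 ± 0.756 CPM per kb and overlapped with its neighbours, and *Igfbpl1* was last at 0.199 ± 0.135.

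Between the regions, 8 of the 9 genes were highest in forebrain, and *Eomes* was highest in hindbrain. The plot of levels by library shows each gene in its own panel.

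**Figure D1:**
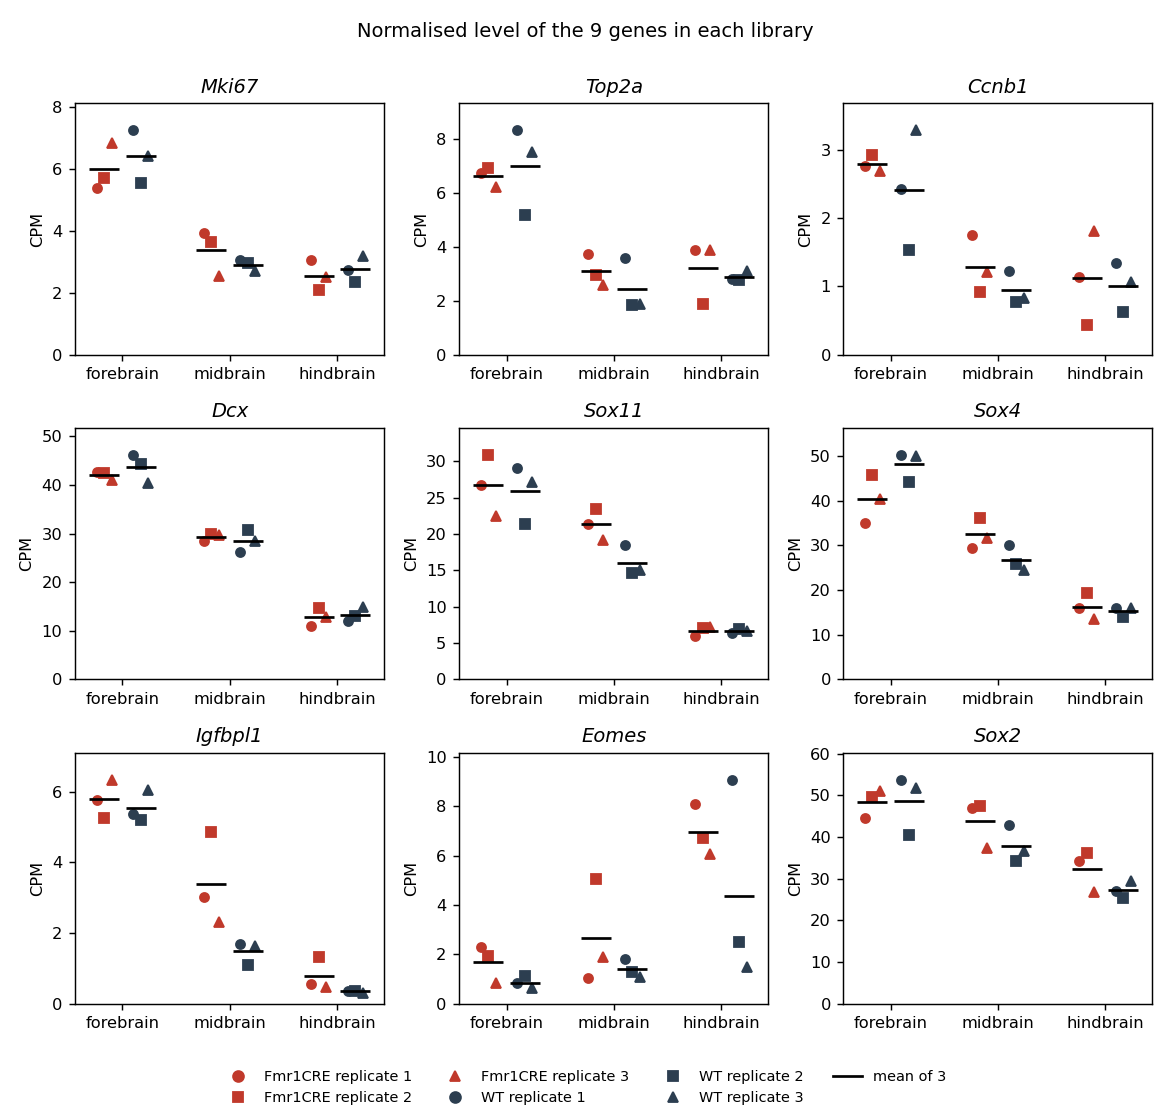
Normalised level of each of the 9 genes in CPM (vertical axes, linear, from 0) in the 18 libraries by region, with Fmr1CRE libraries in red and WT libraries in dark blue, the replicate given by the symbol and the mean of 3 as a bar. *Dcx* fell from a mean of 42.8 CPM in forebrain to 13.0 in hindbrain, while *Eomes* rose from 1.28 to 5.66, and its spread between mice was wide.

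The regions were compared over all 18 libraries with edgeR's quasi-likelihood test, with a mean for each region and genotype and Benjamini-Hochberg adjustment over 20363 genes. Forebrain was above midbrain for 7 of the 9 members at an adjusted p under 0.05 and below it for 0, against 9.38% of all genes tested that were higher and 9.96% that were lower. Forebrain was above hindbrain for 8 members and below it for 1, against 26.4% and 25.3%. Midbrain was above hindbrain for 5 and below it for 1, against 25.1% and 24.0%. The median log2 difference of the members was 0.58 between forebrain and midbrain, 1.29 between forebrain and hindbrain and 0.46 between midbrain and hindbrain, beside medians of 0.023, -0.0085 and -0.030 over all genes tested. The 3 comparisons share libraries, so they are not independent of each other. For each called member the difference had the same direction in 6 of 6 mice, and the two-sided exact sign-flip test over the mice gave 0.03125, the smallest p it can give. Scaling by total counts in place of TMM moved the balance of all calls, from 1911 higher and 2028 lower to 1391 and 2926 between forebrain and midbrain and from 5383 and 5147 to 4349 and 6819 between forebrain and hindbrain, with the median of all genes at -0.15 in the latter and at -0.11 between midbrain and hindbrain. Each called member kept its direction and its call under that scaling. The model does not tie libraries to their mouse. With the mouse as a block no call of a member changed.

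The 3 proliferation genes were higher in forebrain than in either other region. *Mki67* ran from 5.40 to 7.26 CPM with a median of 6.07 in forebrain, from 2.53 to 3.95 CPM with a median of 3.01 in midbrain and from 2.09 to 3.20 CPM with a median of 2.63 in hindbrain. Every forebrain library lay above every other library, and midbrain and hindbrain overlapped. The log2 difference of forebrain was 0.98 ± 0.14 (SE, adjusted p = 0.000206 from edgeR) against midbrain and 1.22 ± 0.14 (SE, adjusted p = 3.1e-06 from edgeR) against hindbrain, so that hindbrain held 42.9% of the forebrain level. Between midbrain and hindbrain it was 0.24 ± 0.15 (SE, adjusted p = 0.191 from edgeR), with a 95% interval of -0.071 to 0.54.

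*Top2a* ran from 5.16 to 8.32 CPM with a median of 6.83 in forebrain, 1.84 to 3.74 CPM with a median of 2.76 in midbrain and 1.87 to 3.87 CPM with a median of 2.95 in hindbrain, again with all forebrain libraries above the rest. Its log2 difference was 1.31 ± 0.21 (SE, adjusted p = 0.000408 from edgeR) from midbrain and 1.16 ± 0.21 (SE, adjusted p = 0.000194 from edgeR) from hindbrain. *Ccnb1* ran from 1.53 to 3.29 CPM with a median of 2.72 in forebrain, 0.775 to 1.75 CPM with a median of 1.06 in midbrain and 0.433 to 1.81 CPM with a median of 1.1 in hindbrain. Its lowest forebrain library, WT replicate 2, lay within the range of both other regions. The log2 difference of *Ccnb1* was 1.24 ± 0.30 (SE, adjusted p = 0.00918 from edgeR) from midbrain and 1.29 ± 0.30 (SE, adjusted p = 0.00203 from edgeR) from hindbrain. Without both mice of replicate 3 the first of these was 1.04 (adjusted p = 0.0877 from edgeR) and lost its call, as it also did without WT replicate 3 alone. The calls of the other 6 members between forebrain and midbrain, and of all 9 between forebrain and hindbrain, held without both mice. Of the 31-base sequences in *Ccnb1* transcripts 27.8% also occur in other genes, mostly a pseudogene counted at 0 in all libraries, and a median of 30.8% of its reads were assigned to a transcript with a retained intron.

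The wider cell cycle genes gave the background of these 3. Of 22 further genes of mitosis, 7 were higher and 0 lower in forebrain than in midbrain, 8 higher and 0 lower than in hindbrain. Their median log2 difference was 0.73 from midbrain and 0.70 from hindbrain, and 21 of the 22 were above 0 in each. Between midbrain and hindbrain the median was 0.024. *Pbk*, a mitotic kinase, exceeded hindbrain by 0.92 (adjusted p = 0.00466) and *Kif11*, the motor that separates spindle poles, by 0.86 (adjusted p = 0.000269), both from edgeR on the log2 scale. Genes of S phase were more mixed, with 4 of 16 higher and 1 lower against midbrain and 4 higher and 3 lower against hindbrain. Of all genes tested, 9.38% were higher and 9.96% lower in forebrain than in midbrain. Against hindbrain these shares were 26.4% and 25.3%, so the S phase counts against hindbrain were near those of all genes. *Uhrf1*, which takes part in copying DNA methylation to the new strand, was higher in forebrain than in hindbrain by 1.55 (adjusted p = 2.75e-05) and *E2f1*, a transcription factor of S phase entry, by 1.47 (adjusted p = 1.9e-09), while *Pcna*, the clamp of DNA polymerase, was lower, at -0.36 (adjusted p = 0.000549). The 10 genes listed for oligodendrocyte precursors summed to 478 to 650.5 CPM in forebrain, 598 to 779.6 CPM in midbrain and 564 to 822 CPM in hindbrain. That sum does not measure how many of these cells divide. The 6 genes of microglia summed to 333 to 457 CPM, 249 to 307 CPM and 172 to 211 CPM in the same order of regions. The part of either cell type in the cell cycle transcripts was not tested.

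The neuroblast genes fell in steps from forebrain over midbrain to hindbrain. *Dcx* ran from 40.4 to 46.2 CPM with a median of 42.5 in forebrain, 26.2 to 30.7 CPM with a median of 29.1 in midbrain and 10.9 to 14.8 CPM with a median of 13.0 in hindbrain. No library of one region overlapped with those of another. Its log2 difference was 0.57 ± 0.079 (SE, adjusted p = 0.000142 from edgeR) between forebrain and midbrain and 1.15 ± 0.080 (SE, adjusted p = 1.61e-08 from edgeR) between midbrain and hindbrain, where 30.4% of the forebrain level was left.

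*Sox11* ran from 21.4 to 30.9 CPM with a median of 27 in forebrain, 14.6 to 23.5 CPM with a median of 18.8 in midbrain and 5.93 to 7.15 CPM with a median of 6.75 in hindbrain. Forebrain and midbrain overlapped and hindbrain lay apart. The log2 difference of *Sox11* was 0.51 ± 0.10 (SE, adjusted p = 0.00274 from edgeR) between forebrain and midbrain and 1.47 ± 0.11 (SE, adjusted p = 2.6e-08 from edgeR) between midbrain and hindbrain. *Sox4* ran from 35.1 to 50.2 CPM with a median of 44.9, 24.5 to 36.1 CPM with a median of 29.7 and 13.4 to 19.3 CPM with a median of 15.9 in the same order of regions, with the same overlap of forebrain and midbrain. Its log2 differences were 0.58 ± 0.098 (SE, adjusted p = 0.000637 from edgeR) and 0.90 ± 0.099 (SE, adjusted p = 2.35e-06 from edgeR). Of the 31-base sequences of *Sox4* 54.7% are shared with other genes, nearly all with *Gm26735*, a transcript annotated over it on the opposite strand that was counted at 11 reads at most.

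*Igfbpl1* had the largest log2 difference between forebrain and hindbrain of the 9. It ran from 5.20 to 6.34 CPM with a median of 5.56 in forebrain, 1.1 to 4.85 CPM with a median of 2.01 in midbrain and 0.316 to 1.33 CPM with a median of 0.417 in hindbrain. All forebrain libraries were above all midbrain libraries, and midbrain and hindbrain overlapped through 1 hindbrain library, Fmr1CRE replicate 2. The log2 difference of forebrain from hindbrain was 3.41 ± 0.25 (SE, adjusted p = 1.6e-08 from edgeR), a fold of 10.6, and that of midbrain from hindbrain was 2.08 ± 0.25 (SE, adjusted p = 7.09e-06 from edgeR). By mean CPM, hindbrain at 0.569 held 10.04% of the forebrain level of 5.67. Forebrain exceeded midbrain by 1.33 ± 0.23 (SE, adjusted p = 0.00067 from edgeR) on the log2 scale.

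The comparison of forebrain and midbrain was also made in each genotype alone. In Fmr1CRE libraries alone the log2 difference of *Igfbpl1* was 0.80, that of *Mki67* 0.85 and that of *Sox11* 0.36, with adjusted p of 0.180, 0.109 and 0.246 from edgeR. Those of *Dcx* and *Top2a* were 0.55 and 1.13, next to 0.57 and 1.31 over both genotypes, with adjusted p of 0.0530 and 0.0570 from edgeR, just above 0.05. *Ccnb1* had 1.14 and *Sox4* 0.34, with adjusted p of 0.103 and 0.195 from edgeR. None of the 7 calls held there, with unadjusted p under 0.05 for all but *Sox11*, and 243 of all genes were called. Differences between the genotypes are tested further on. In WT libraries alone 1985 genes and the same 7 members were called.

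Other genes of immature neurons moved in both directions. Of 18 such genes, 8 were higher and 4 lower in forebrain than in midbrain, 13 higher and 4 lower than in hindbrain, and 14 higher and 3 lower in midbrain than in hindbrain. Their median log2 differences were 0.30, 0.95 and 1.0. Among all genes tested, 9.38% were higher and 9.96% lower in the first comparison. The shares were 26.4% and 25.3% in the second and 25.1% and 24.0% in the third. *Dlx1* and *Dlx2*, homeobox genes of interneuron neuroblasts, exceeded midbrain by 1.40 (adjusted p = 0.000648) and 1.38 (adjusted p = 0.000593) from edgeR. In hindbrain *Dlx1* had 0 to 0.474 CPM and *Dlx2* 0 to 0.0721. *Nrep*, a protein of neuron outgrowth, and *Cd24a*, a surface protein of neuroblasts and ependyma, were instead lower in forebrain than in hindbrain, at -1.77 (adjusted p = 8.83e-07) and -0.91 (adjusted p = 1.12e-07). *Dpysl5* and *Dpysl3*, proteins of axon growth, were lower in forebrain than in midbrain, at -0.74 (adjusted p = 0.0233) and -0.53 (adjusted p = 0.0218). The 7 genes listed for dentate granule neurons summed to 203 to 289 CPM in forebrain, 261 to 434 CPM in midbrain and 284 to 506 CPM in hindbrain. Of these, *C1ql2* was lower in forebrain than in midbrain, at -1.62 (adjusted p = 0.000257 from edgeR). The list was mixed against hindbrain. *Lct* and *Pdzd2* were higher in forebrain, at 2.97 (adjusted p = 2.84e-06) and 2.30 (adjusted p = 1.55e-07) from edgeR. *Calb1* was lower in forebrain than in hindbrain, at -1.36 (adjusted p = 1.23e-05 from edgeR). The part of dentate tissue in the levels of each region was not tested.

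**Figure D2:**
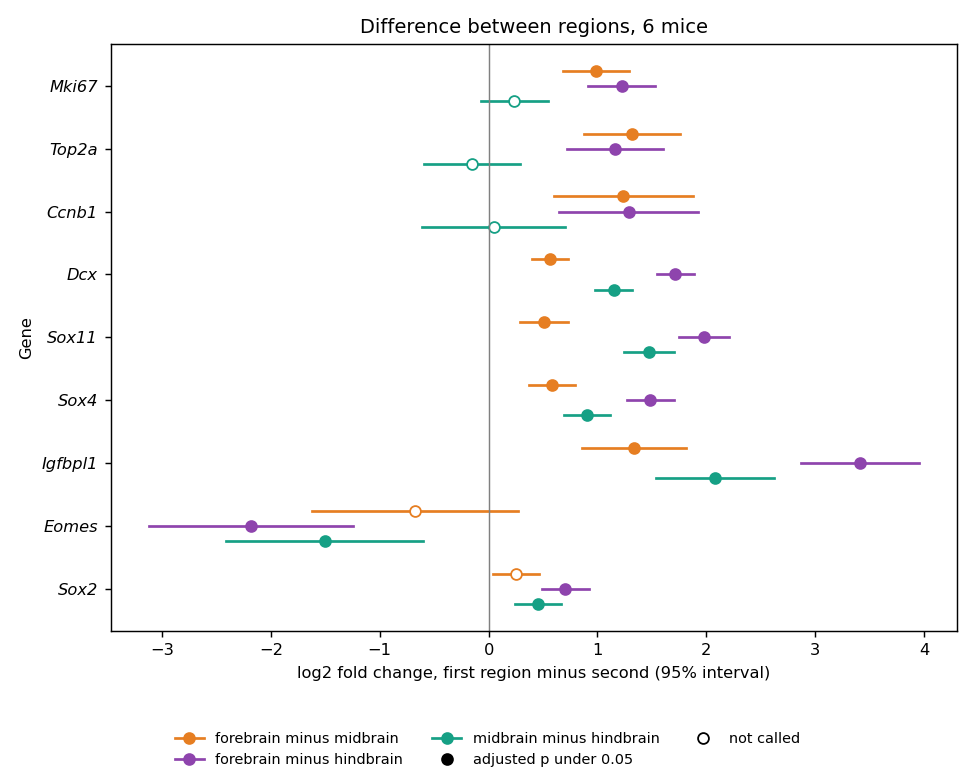
Log2 fold change between regions for each of the 9 genes (vertical axis) over 6 mice, with 95% intervals as bars. Filled points passed an adjusted p of 0.05 in edgeR and open points did not. Differences of forebrain from hindbrain reached from -2.18 for *Eomes* to 3.41 for *Igfbpl1*, and those of the 3 proliferation genes between midbrain and hindbrain lay around 0.

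*Eomes* went the other way. It ran from 0.626 to 2.29 CPM with a median of 0.990 in forebrain, 1.06 to 5.04 CPM with a median of 1.57 in midbrain and 1.5 to 9.08 CPM with a median of 6.38 in hindbrain. Hindbrain overlapped with midbrain through WT replicates 2 and 3, at 2.51 and 1.5 CPM, and with forebrain through the latter, while its other 4 libraries lay between 6.06 and 9.08. The log2 difference of forebrain was -2.18 ± 0.44 (SE, adjusted p = 0.000612 from edgeR) from hindbrain, and each mouse had more *Eomes* in hindbrain than in forebrain. Midbrain differed from hindbrain by -1.51 ± 0.42 (SE, adjusted p = 0.00796 from edgeR), a call lost without WT replicate 1, at -1.06 (adjusted p = 0.0504 from edgeR), and in either genotype alone. Between forebrain and midbrain the log2 difference of -0.68 did not pass the test (adjusted p = 0.317 from edgeR, 95% interval -1.62 to 0.27).

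Genes of the cell types that use *Eomes* were set beside it. All 8 genes of unipolar brush cells, such as *Lmx1a*, were lower in forebrain than in hindbrain, with a median log2 difference of -1.15, with *Svep1* at -2.22 (adjusted p = 7.49e-06) and *Lmx1a* at -1.87 (adjusted p = 0.000397) from edgeR. Several of them are also made outside the cerebellum, and *Otx2* stands in the choroid plexus and midbrain lists too. In hindbrain *Eomes* was at 8.10, 6.71 and 6.06 CPM in Fmr1CRE replicates 1 to 3 and 9.08, 2.51 and 1.5 CPM in the WT replicates. The sums of the unipolar brush cell genes were 548, 435, 485, 533, 498 and 431 CPM in that order of libraries. The 9 hindbrain markers summed to 649, 347, 494, 550.5, 458 and 359.9 CPM in that order of libraries. The part of either in the spread of *Eomes* was not tested. Of 10 granule cell precursor genes tested, 6 were lower and 3 higher in forebrain than in hindbrain, against 25.3% and 26.4% of all genes. *Atoh1*, which defines dividing granule precursors, had 0 to 2 reads in hindbrain libraries and 0 in all of forebrain, whereas *Gabra6*, picked like *Atoh1* after its values were seen and a receptor subunit of mature granule neurons, had 123 to 320.3 CPM in hindbrain.

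Genes that share the intermediate progenitor stage with *Eomes* did not follow it as a group. Of the 9 tested, 6 were higher and 3 lower in forebrain than in hindbrain, with a median log2 difference of 1.0. At an adjusted p under 0.05, 26.4% of all genes were higher and 25.3% lower in that comparison. *Insm1* and *Neurog2*, which drive delamination and neuronal fate, were higher in forebrain by 2.37 (adjusted p = 8.48e-09) and 1.35 (adjusted p = 0.000129). *Neurod1*, also a gene of cerebellar granule neurons, was lower, at -3.33 (adjusted p = 9.86e-08). *Tbr1*, the T-box relative of *Eomes* that follows it in cortical neurons, fell from 53.3 to 81.4 CPM in forebrain to 0.165 to 0.830 CPM in hindbrain. Another of this family, *Tbx21*, a gene of mitral and tufted cells, had 0 to 6 reads in any library and was not tested.

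*Sox2* had the smallest difference between forebrain and hindbrain of the 9. It ran from 40.5 to 53.8 CPM with a median of 50.3 in forebrain, 34.2 to 47.4 CPM with a median of 40.2 in midbrain and 25.5 to 36.3 CPM with a median of 28.2 in hindbrain. Forebrain lay above hindbrain in each library and overlapped with midbrain. The log2 difference of forebrain was 0.71 ± 0.10 (SE, adjusted p = 2.22e-05 from edgeR) from hindbrain and 0.25 ± 0.10 (SE, adjusted p = 0.0924 from edgeR) from midbrain, and the latter did not pass the test. Midbrain exceeded hindbrain by 0.46 ± 0.10 (SE, adjusted p = 0.00142 from edgeR). The gene lies within *Sox2ot*, a longer transcript of the same strand, so reads of the overlap cannot be assigned by strand.

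Among 16 other genes of neural stem cells, 7 were higher and 6 lower in forebrain than in hindbrain, and 3 higher and 3 lower than in midbrain. The shares of all genes tested were 26.4% higher and 25.3% lower against hindbrain, and 9.38% and 9.96% against midbrain. *Thbs4*, a secreted protein of subventricular astrocytes, was higher in forebrain than in hindbrain by 5.49 (adjusted p = 4.4e-09) and *Hes5*, a Notch target, by 1.98 (adjusted p = 5.63e-05) on the log2 scale in edgeR. *Pax6* and *Hopx*, both also made by cerebellar cells, were lower in forebrain, at -1.78 (adjusted p = 5.18e-07) and -1.62 (adjusted p = 2.88e-08). The astrocyte list of 8 genes had 2 higher and 2 lower, and its summed level ran from 3846 to 7821 CPM in forebrain and from 3749 to 4385 CPM in hindbrain.

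Close relatives were set beside the members. *Top2b*, the topoisomerase of cells that no longer divide, did not differ detectably between forebrain and hindbrain, at 0.012 (adjusted p = 0.915) with an interval of -0.16 to 0.19, where *Top2a* differed by 1.16. *Ccnb2*, the other mitotic B cyclin, had a log2 difference of 0.56 (adjusted p = 0.145) in the same comparison and *Ccnb3* had 2 reads at most in a library. *Dclk1* and *Dclk2*, kinases with the doublecortin domain, were higher in forebrain than in hindbrain by 1.88 (adjusted p = 8.51e-10) and 0.62 (adjusted p = 1.36e-05), and at 161 CPM per kb in forebrain *Dclk1* stood far above *Dcx* at 6.19. *Sox12*, the third SoxC gene, had 0.42 (adjusted p = 0.00960), next to 1.98 for *Sox11* and 1.49 for *Sox4*. Of the relatives of *Sox2*, *Sox1* had 1.20 (adjusted p = 4.89e-05) and *Sox21* 1.33 (adjusted p = 4.89e-05), and *Sox3* had 0.41 (adjusted p = 0.0743), all as log2 differences of forebrain from hindbrain in edgeR. *Igfbp7*, a related binding protein of blood vessels, had -0.087 (adjusted p = 0.583). Differences between a member and its relative were not tested.

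Across the 18 libraries the members' log2 CPM followed the regions. Pearson's r was 0.97 for *Dcx* and *Sox11*, 0.91 for *Top2a* and *Ccnb1*, 0.89 for *Mki67* and *Top2a* and -0.75 for *Dcx* and *Eomes*. These libraries share regions and mice, so the values are descriptions. With each region's mean subtracted, *Top2a* still went with *Ccnb1* at 0.78 and with *Mki67* at 0.63, and *Igfbpl1* with *Sox2* at 0.74 and *Sox4* at 0.62. *Dcx* went against *Top2a* at -0.46 and against *Ccnb1* at -0.49, and with *Sox11* at no more than 0.16.

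Among 14192 protein-coding genes, those with the profile most like a member over the 18 libraries were listed with their Pearson r of log2 CPM. For *Mki67* they were *Gng10* (0.95), *Csnk1g2* (0.94) and *Serpina9* (0.93), for *Top2a* *Ccnb1* (0.91), *Mki67* (0.89) and *Vti1b* (0.89) and for *Ccnb1* *Top2a* (0.91), *Fli1* (0.87) and *Aass* (0.85). The profile of *Dcx* was most like *Kcnh7* (0.99), *Lmo4* (0.99) and *Tmem132d* (0.99), that of *Sox11* like *Chrm4* (0.99), *Kcnip2* (0.99) and *Plk2* (0.98), that of *Sox4* like *Apc* (0.99), *Wwc1* (0.98) and *Tacc1* (0.98) and that of *Igfbpl1* like *Tacc1* (0.96), *Sox4* (0.96) and *Blnk* (0.96). *Eomes* was nearest to *Zic5* (0.87), *March11* (0.85) and *Cdk2ap2* (0.84) and *Sox2* to *Igfbpl1* (0.94), *Spred1* (0.93) and *Hes5* (0.93). Members thus appeared among the 3 nearest genes of *Top2a*, *Ccnb1*, *Igfbpl1* and *Sox2*. After subtracting region means the nearest gene was *Ifnar1* (0.78) for *Mki67*, *Mbd4* (0.88) for *Top2a*, *Top2a* (0.78) for *Ccnb1*, *Rgs14* (0.84) for *Dcx*, *Egr2* (0.87) for *Sox11*, *Klhdc7a* (0.87) for *Sox4*, *Dnajc28* (0.85) for *Igfbpl1*, *Bdnf* (0.85) for *Eomes* and *Prkx* (0.90) for *Sox2*.

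Fmr1CRE and WT mice were compared within each region with the same test on 3 libraries against 3. No member passed an adjusted p of 0.05 in any region. In forebrain 0 of 9 members were called, against 0% of 18467 genes, and 0 had an unadjusted p under 0.05, against 5.43%. In midbrain 0 of 9 were called, against 0.00543% of 18400 genes, and 3 had an unadjusted p under 0.05, against 6.17%. In hindbrain 0 of 9 were called, against 0% of 19112 genes, and 1 had an unadjusted p under 0.05, against 5.13%. These shares of all genes moved with single libraries. Without Fmr1CRE replicate 3 in forebrain, 3230 of 19075 genes had an unadjusted p under 0.05, against 1002 of 18467 with it, and of the members *Eomes* did. Without WT replicate 3 the number went from 1135 to 2223 in midbrain, where *Sox11* and *Igfbpl1* had such a p, and from 981 to 2406 in hindbrain, where no member did. DESeq2 called 0 of the 9 in each region as well, where it called 31, 62 and 59 of all genes in forebrain, midbrain and hindbrain. With 3 mice against 3, the two-sided exact permutation test cannot go below 0.1. The mice are biological replicates per the labels.

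**Figure D3:**
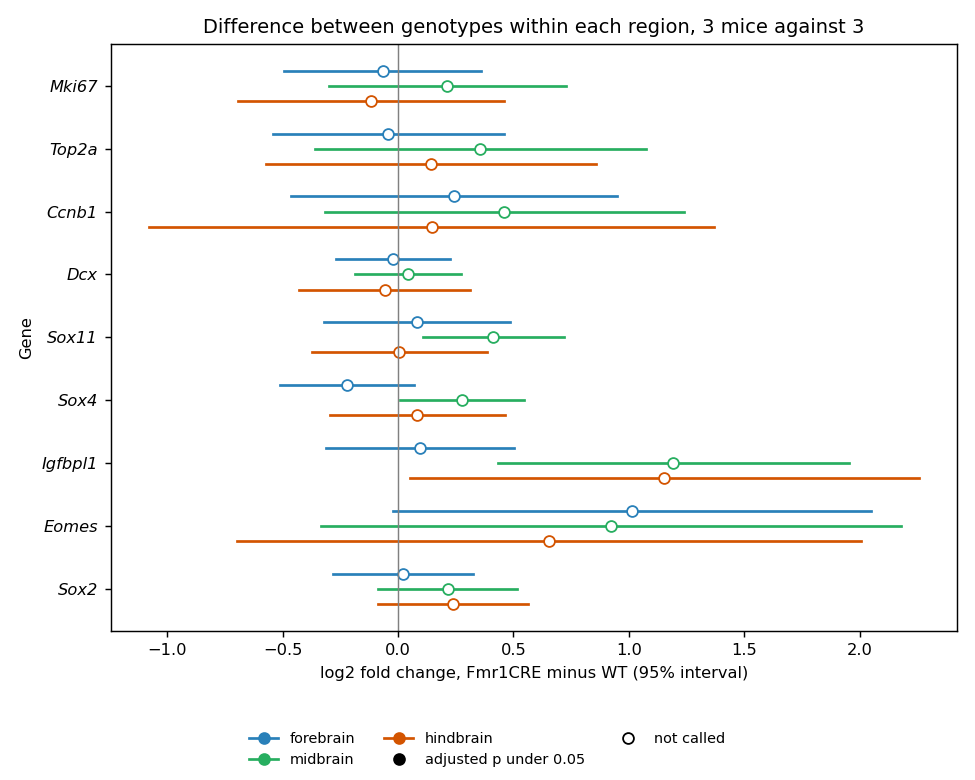
Log2 fold change of Fmr1CRE against WT libraries for each of the 9 genes (vertical axis) in each region, 3 mice against 3, with 95% intervals as bars. All points are open, since none passed an adjusted p of 0.05 in edgeR. The intervals of *Dcx* stayed within -0.43 to 0.31. Those of *Igfbpl1* in midbrain and hindbrain, and of *Sox11* and *Sox4* in midbrain, lay above 0.

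The member with the widest separation of genotypes was *Igfbpl1*. In midbrain it had 3.01, 4.85 and 2.33 CPM in Fmr1CRE replicates 1 to 3 and 1.70, 1.1 and 1.64 CPM in WT replicates 1 to 3. The genotypes did not overlap there, with a mean of 3.40 ± 1.31 (SD, n = 3) against 1.48 ± 0.330 (SD, n = 3). The log2 fold change was 1.19 ± 0.33 (SE, adjusted p = 0.770 from edgeR), a fold of 2.29 with a 95% interval of 1.35 to 3.87, an unadjusted p of 0.00707 and an exact permutation p of 0.1, the smallest possible. With 1 library left out the log2 fold change ran from 0.85 to 1.40. Fmr1CRE replicate 2, the highest library here, was also the highest midbrain library for *Sox11*, *Sox4* and *Eomes*.

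In hindbrain *Igfbpl1* had 0.568, 1.33 and 0.463 CPM in Fmr1CRE mice and 0.371, 0.363 and 0.316 CPM in WT mice, again without overlap, but from 11 to 37 reads against 8 to 11. The log2 fold change was 1.15 ± 0.48 (SE, adjusted p = 0.875 from edgeR), with an unadjusted p of 0.0423 and an exact permutation p of 0.1. Fmr1CRE replicate 2, with 37 reads, was far above the rest, and the log2 fold change without it was 0.55. In forebrain, where the gene is highest, it had 5.76, 5.27 and 6.34 CPM in Fmr1CRE mice and 5.37, 5.20 and 6.06 CPM in WT mice, which overlapped. The log2 fold change there was 0.094 ± 0.17 (SE, adjusted p = 0.913 from edgeR), with an interval of -0.31 to 0.50, and 0.12 without both mice of replicate 3.

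*Sox11* in midbrain had 21.4, 23.5 and 19.1 CPM in Fmr1CRE mice and 18.5, 14.6 and 15.1 CPM in WT mice and did not overlap either. Its log2 fold change was 0.41 ± 0.13 (SE, adjusted p = 0.770 from edgeR), with an unadjusted p of 0.0144 and an exact permutation p of 0.1. *Sox4* had 29.5, 36.1 and 31.6 CPM against 30.0, 25.7 and 24.5, which overlapped, and a log2 fold change of 0.28 ± 0.12 (SE, adjusted p = 0.806 from edgeR) with an unadjusted p of 0.0437. Counted over members, 2 of 9 had no overlap of genotypes in midbrain, against 11.3% of all genes tested, 1 of 9 in hindbrain, against 10.9%, and 0 of 9 in forebrain, against 10.3%. All 9 log2 fold changes were above 0 in midbrain, with a median of 0.36 where that of all genes was -0.0046, but that of *Dcx* was 0.044 and changed sign without WT replicate 1.

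The list of immature neuron genes was looked at in midbrain after the values of *Igfbpl1* were seen. Of the 18 immature neuron genes, 3 had all Fmr1CRE midbrain libraries above all WT ones and 0 the reverse, against 11.3% of all genes tested with no overlap in either direction. *Dlx1* had 15.7, 15.0 and 13.9 CPM against 11.3, 9.54 and 8.11, a log2 fold change of 0.63 ± 0.14 (SE, adjusted p = 0.686 from edgeR). *Dlx6os1*, the long noncoding RNA of the *Dlx5* and *Dlx6* locus, had 14.5, 11.3 and 15.2 CPM against 9.15, 6.85 and 7.36, a log2 fold change of 0.81 ± 0.17 (SE, adjusted p = 0.602 from edgeR). *Dlx5* had 2.16, 3.37 and 2.57 CPM against 1.52, 1.06 and 0.787, a log2 fold change of 1.27 ± 0.30 (SE, adjusted p = 0.708 from edgeR). All the others overlapped. In forebrain the log2 fold changes of *Dlx1*, *Dlx6os1* and *Dlx5* were -0.19, -0.40 and -0.025, and the genotypes overlapped for each. Over summed regions they were 0.044, -0.050 and 0.34, again with overlap. The marker lists of tissue were set beside these genes. Forebrain markers summed to 171, 265 and 222 CPM in Fmr1CRE mice and 287, 261 and 191 CPM in WT mice, and 4 of 7 log2 fold changes were above 0. Midbrain markers had log2 fold changes below 0 in all 8 genes, with a median of -0.49. In 4 of these 8 all Fmr1CRE libraries lay below all WT ones, and 3 had an unadjusted p under 0.05. They summed to 82.9, 46.7 and 58.0 CPM in Fmr1CRE mice and 109.6, 72.0 and 64.0 CPM in WT mice, which overlapped. Of the hindbrain markers tested, 2 of 8 log2 fold changes were above 0, with a median of -0.54, and the sums were 74.3, 174 and 96.1 CPM in Fmr1CRE mice and 113, 171 and 211 CPM in WT mice. Ependymal genes had 7 of 7 log2 fold changes above 0, with a median of 0.43, and summed to 36.6, 49.6 and 40.5 CPM in Fmr1CRE mice and 37.8, 35.8 and 34.8 CPM in WT mice. None of these marker genes was called. The part of these marker levels in the values of *Igfbpl1*, *Sox11* and the *Dlx* genes was not tested.

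**Figure D4:**
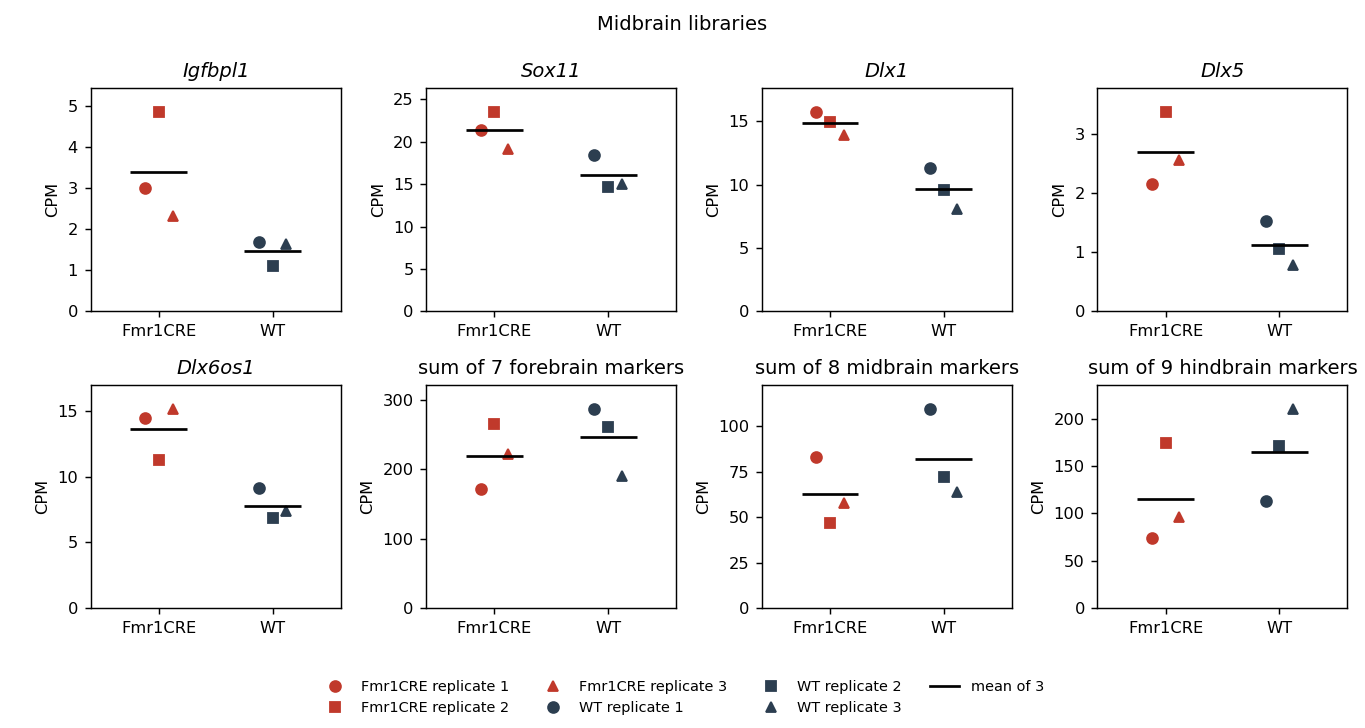
Normalised level in CPM (vertical axes, linear, from 0) of *Igfbpl1*, *Sox11*, *Dlx1*, *Dlx5* and *Dlx6os1*, and the sums of 7 forebrain, 8 midbrain and 9 hindbrain markers, in the 6 midbrain libraries, with the replicate given by the symbol and the mean of 3 as a bar. The 5 genes are the 2 of 9 members and 3 of 18 immature neuron genes whose Fmr1CRE and WT libraries do not overlap. They are shown for that, and the others of both lists overlapped. Of all genes tested 11.3% did not overlap. The 3 sums of markers overlap, with midbrain markers at 46.7 to 82.9 CPM in Fmr1CRE libraries and 64.0 to 109.6 CPM in WT libraries. None of these genes passed an adjusted p of 0.05, and all 5 were picked after their values were seen.

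*Eomes* had the largest spread between mice of 1 group, with a coefficient of variation of 94.3% in WT hindbrain. In forebrain it had 2.29, 1.93 and 0.852 CPM in Fmr1CRE mice and 0.836, 1.13 and 0.626 CPM in WT mice, and the lowest Fmr1CRE library lay between the WT ones. The log2 fold change was 1.01 ± 0.45 (SE, adjusted p = 0.806 from edgeR), with an interval of -0.022 to 2.05, and 1.15 (adjusted p = 0.304 from edgeR) without both mice of replicate 3. In midbrain the levels were 1.06, 5.04 and 1.89 CPM and 1.83, 1.31 and 1.1 CPM, and Fmr1CRE replicate 2 stood far above the rest. The log2 fold change was 0.92 ± 0.54 (SE, adjusted p = 0.830 from edgeR), and 0.069 without it. In hindbrain they were 8.10, 6.71 and 6.06 CPM and 9.08, 2.51 and 1.5 CPM, where WT replicate 1 was above and the other 2 WT mice below all Fmr1CRE mice. The log2 fold change there was 0.65 ± 0.58 (SE, adjusted p = 0.906 from edgeR), with an interval of -0.70 to 2.00. It was 1.79 without WT replicate 1 and 0.25 at the lowest with another mouse left out.

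The remaining members overlapped between the genotypes in each region. *Dcx* in forebrain had 42.6, 42.4 and 41.0 CPM in Fmr1CRE mice and 46.2, 44.4 and 40.4 CPM in WT mice, and its interval of -0.27 to 0.22 on the log2 scale was the narrowest of the 9 in that region. *Mki67* there had 5.40, 5.72 and 6.86 CPM against 7.26, 5.56 and 6.42, with a log2 fold change of -0.067 ± 0.18 (SE, adjusted p = 0.946 from edgeR). *Sox2* in forebrain had 44.7, 49.5 and 51.0 CPM against 53.8, 40.5 and 51.8, and its log2 fold change was 0.022 ± 0.13 (SE, adjusted p = 0.978 from edgeR). The genotypes overlapped for each of these genes. The forebrain log2 fold changes of *Top2a*, *Ccnb1*, *Sox11* and *Sox4* were -0.043, 0.24, 0.084 and -0.22, and 0.074, 0.58, 0.24 and -0.17 without both mice of replicate 3. For *Mki67*, *Dcx* and *Sox2* the values without these mice were -0.15, -0.039 and 0.050. In midbrain and hindbrain the intervals of *Ccnb1* reached from -0.32 to 1.24 and from -1.08 to 1.37, in libraries with 12 to 43 reads of the gene, and include 0.

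When the 3 libraries of each mouse were added up, 0 of 9 members were called, against 0.00451% of 22191 genes, and 1 had an unadjusted p under 0.05, against 3.70%. That was *Igfbpl1*, with a log2 fold change of 0.48 ± 0.16 (SE, adjusted p = 0.998 from edgeR) and an unadjusted p of 0.0165, where all Fmr1CRE mice were above all WT mice (exact permutation test, p = 0.1). Without both mice of replicate 3 it was 0.63 (adjusted p = 0.840 from edgeR). *Eomes* followed with 0.75 ± 0.45 (SE, adjusted p = 0.998 from edgeR), which was 1.48 without WT replicate 1, 0.41 without WT replicate 3 and 0.58 without both mice of replicate 3. *Dcx* with 0.0039 ± 0.063 (SE, adjusted p = 1.0 from edgeR) had the narrowest interval of the 9, from -0.14 to 0.15, and was 0.015 without these mice. A test of whether the genotype difference varied between regions called 0 of 9 members, against 0% of 20363 genes, and 2 had an unadjusted p under 0.05, against 7.54%. These were *Igfbpl1* and *Sox4*, both with an adjusted p of 0.660 from edgeR. Without both mice of replicate 3 the adjusted p was 0.245 for *Igfbpl1* and 0.386 for *Sox4* from edgeR, 0 of 9 members were called, and 131 of all genes were. Whether the midbrain difference of either exceeded that of the other regions was therefore not shown by this test.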

How the data were processed

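Poly(A) RNA of dissected forebrain, midbrain and hindbrain from 3 Fmr1CRE and 3 WT mice was sequenced in 18 libraries. The authors processed the reads with bcbio_nextgen and salmon, and per the labels the tools were Salmon 0.14.0 and DESeq2 1.30.1 with mm10. The deposited table held whole-number counts per gene, which were used as deposited. The deposited salmon files gave estimated counts and TPM per transcript. Their names did not match the sample records that they are attached to, so they served, pooled over all 18 sets, only for transcript lengths and shares. A deposited table of variance-stabilised values was not used here. Whether counting used strand is not given in the sources used here.

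Groups came from the sample titles. Symbols were matched with GENCODE M21, which named 53431 of 53468 genes. The tests were run in R 4.3.3 with edgeR 4.0.16, on genes kept by filterByExpr, with TMM factors, a quasi-likelihood fit and Benjamini-Hochberg adjustment over all genes tested, at a threshold of 0.05. Exact two-sided tests over mice used log2(CPM + 0.05), and correlations log2 CPM with a prior count of 2. Levels between genes were CPM divided by effective length. Depth was 22455512 to 28061185 counts per library. DESeq2 1.42.0, other scalings and filters, blocks and left-out libraries were tried as alternatives. The scripts were tested on simulated data. All 9 members were named in each comparison, and from each of 19 further gene lists at most 2 genes higher and 2 lower with the largest difference among those called without overlap, unless said otherwise. A gene of the lists is not reported here and entered no sum. The members and lists were chosen with earlier results of these data known. A replicate number names 1 mouse in all 3 regions per the titles, and deviations of libraries of a mouse from their group means correlated at -0.17 to 0.18 between regions.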

Additional observations from a re-analysis of the deposited data

Results flagged for a closer look

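*Eomes* in the midbrain library of Fmr1CRE replicate 2 was at 5.04 CPM, while the other 5 midbrain libraries lay between 1.06 and 1.89 CPM. Its gap to the nearest library exceeded the 95% critical value of Dixon's test for 6 samples, on the log2 scale. Of 27 such tests of members in regions it was the only one past that value, and chance flags about 1 in 20. In midbrain the same library had the highest sum of the granule cell precursor list, 655 CPM against 415 to 546 CPM in the others. That list also holds *Gabra6*, a gene of mature granule neurons. *Atoh1*, which defines dividing granule precursors, was not detected in the Fmr1CRE midbrain libraries, so that sum is not a measure of precursors. The library also had the highest sum of dentate granule neuron genes, 434 CPM against 261 to 342 CPM, and of choroid plexus genes, 489 CPM against 175 to 340.1 CPM. It did not have the highest sum of unipolar brush cell genes, 432 CPM against 438 CPM in WT replicate 2, or of hindbrain markers, 174 CPM against 211 CPM in WT replicate 3. Their part in the *Eomes* level was not tested.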

How the results depend on the processing

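No call of a member between the genotypes was made under any alternative run, by DESeq2 or otherwise. The number of all genes called did depend on the setting. DESeq2 called 31 genes in forebrain, 62 in midbrain, 59 in hindbrain and 26 over summed regions, where edgeR called 0, 1, 0 and 1. A single fit of all 18 libraries called 1, 0 and 1 in forebrain, midbrain and hindbrain. Without a filter the counts were 11 in midbrain, 11 in hindbrain, 4 over summed regions and 7 for genotype by region, and at 10 counts in every library 0 in midbrain. Without both mice of replicate 3 they were 3 in midbrain, 1 in hindbrain, 0 over summed regions and 131 for genotype by region, and the cause was not tested. With 1 library or mouse left out they ran from 0 to 4 in midbrain, 0 to 5 in hindbrain, 0 to 0 over summed regions, 0 to 4 for genotype by region and 2258 to 4001 between forebrain and midbrain.

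WT libraries alone gave 1985 calls between forebrain and midbrain and 6618 between midbrain and hindbrain, and Fmr1CRE libraries alone 243, 4968 between forebrain and hindbrain and 5628, with fewer samples in each fit. Between regions, Fmr1CRE libraries alone ended all 7 member calls of forebrain against midbrain, that of *Ccnb1* between forebrain and hindbrain and those of *Eomes* and *Sox2* between midbrain and hindbrain. The log2 differences there were 0.55 for *Dcx* (adjusted p = 0.0530 from edgeR), 1.13 for *Top2a* (adjusted p = 0.0570) and 1.3 for *Ccnb1* between forebrain and hindbrain (adjusted p = 0.0816).

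Uncalled differences of members near 0 changed sign. In forebrain, with 1 library left out, *Mki67* ran from -0.16 to 0.033, *Top2a* from -0.22 to 0.10, *Ccnb1* from -0.0010 to 0.55, *Dcx* from -0.062 to 0.023, *Sox11* from -0.038 to 0.21 and *Sox2* from -0.095 to 0.10. There *Top2a* was 0.074 without both mice of replicate 3, *Dcx* 0.0065 with total counts and *Sox2* -0.0098 in the single fit. *Dcx* in midbrain ran from -0.021 to 0.10. In hindbrain *Mki67* ran from -0.27 to 0.018, *Top2a* from -0.020 to 0.42, *Ccnb1* from -0.36 to 0.54, *Dcx* from -0.16 to 0.043, *Sox11* from -0.045 to 0.083 and *Sox4* from -0.049 to 0.20. Without both mice of replicate 3, *Mki67*, *Ccnb1*, *Dcx* and *Sox11* were 0.00069, -0.33, 0.012 and -0.057 there, and *Sox11* was -0.0099 with total counts. Over summed regions *Mki67* ran from -0.068 to 0.054, *Top2a* from -0.042 to 0.23, *Dcx* from -0.019 to 0.024 and *Sox4* from -0.086 to 0.080, with -0.0057 for *Mki67* and -0.0057 for *Dcx* without a filter. Between midbrain and hindbrain *Ccnb1* ran from -0.085 to 0.33 with 1 mouse left out and was -0.032 with total counts, -0.00012 at 10 counts in every library and -0.11 in WT alone, and *Top2a* was 0.088 without both mice of replicate 3. *Igfbpl1* had no value at 10 counts in every library in hindbrain and between regions.

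Genotypes shared only replicate numbers. Deviations of same-numbered libraries correlated at -0.12 to 0.069 between genotypes, and with that number as a replicate block 0 genes were called over summed regions, against 1 without it. The mouse or number as a block changed no call of a member. *Ccnb1*, *Eomes* and *Igfbpl1* had as few as 12, 16 and 8 reads in a library, and the part of depth in their intervals was not tested. Intervals cover the spread between 3 mice of 1 litter per genotype.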
